A study of Mus musculus with 8 samples.

Results

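The genes described here make cholesterol, sense it, take it up and move it inside the cell, and they were followed in the ileum of mice that lack Slc51a. The set was given by name as 31 genes, of which 27 were measured among 17097 genes on the array. Acat2, Pmvk, Soat1 and Soat2 were not analysed here, so the cytosolic thiolase, phosphomevalonate kinase and both sterol esterification enzymes are missing from what follows. The study compared 4 wild-type and 4 Slc51a knockout samples of ileum from male mice on a C57BL/6 background. The animals were about 2 months old and were killed after 4 h without food. The sources used here do not say how the Slc51a allele was made or whether the wild types were littermates. Each sample was run on 1 Affymetrix expression array, and values are log2 signals normalised by the authors, on which a difference of 1 is a doubling.

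Cholesterol is built from acetyl units in the mevalonate pathway, which ends in isoprenoid diphosphates. A pair of these is joined into squalene, and a chain of sterol enzymes turns squalene into cholesterol. The transcription factor encoded by Srebf2 drives most of these genes when membranes run short of sterol. Its escort Scap carries it to the Golgi for cleavage, and the Insig proteins hold both in the endoplasmic reticulum when sterol is plentiful. In the small intestine cholesterol also enters from the lumen through Npc1l1, and bile acids are needed to dissolve it there. Slc51a encodes a subunit of the transporter through which bile acids leave the enterocyte into the blood.

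Reference promoter sequences (RefSeq, GRCm38.p6) were searched for short motifs. A window from 250 bases before to 50 bases after the start site was found for 21 of the 27 genes, and Fdps, Fdft1, Sqle, Scarb1, Npc1 and Stard4 had none. The CCAAT box (CCAAT, bound by NF-Y, a factor that works beside SREBP) was found on either strand for 20 of the 21 genes, or 95.2%, against 41.1% of 27025 genes with a window. The GC box GGGCGG was found for 19 of 21, or 90.5%, against 38.2% of all. The sterol regulatory element in the form TCACNCCAC was found for 1 of 21 genes, Hmgcs1, and for 1.44% of all. The E-box CACGTG was found for 5 of 21 genes, or 23.8%, against 8.09% of all. Each motif was searched on both strands, and a match describes these letters only. The 27025 genes were neither limited to those on the array nor matched to the set on signal. Nothing particular to the set is therefore read from these shares. The stretches before the start site are printed for 3 genes that were higher in the knockout (Mvd, Idi1, Ebp), 3 that were lower (Sc5d, Npc1l1, Mylip) and Hmgcs1, the gene with a sterol element. They run 5′ to 3′ on the strand of the gene and end at the base before its start. Capitals mark CCAAT, its reverse complement ATTGG and, in Hmgcs1, TCACCCCAC.
Mvd: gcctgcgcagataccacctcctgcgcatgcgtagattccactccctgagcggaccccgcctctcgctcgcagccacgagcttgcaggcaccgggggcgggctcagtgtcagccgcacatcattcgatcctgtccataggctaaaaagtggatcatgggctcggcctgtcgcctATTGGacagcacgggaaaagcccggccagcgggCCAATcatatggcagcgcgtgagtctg
Idi1: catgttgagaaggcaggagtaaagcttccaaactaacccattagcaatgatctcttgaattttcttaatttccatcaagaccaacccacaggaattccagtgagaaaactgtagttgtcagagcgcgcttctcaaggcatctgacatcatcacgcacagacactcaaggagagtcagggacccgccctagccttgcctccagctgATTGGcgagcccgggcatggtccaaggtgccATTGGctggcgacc
Ebp: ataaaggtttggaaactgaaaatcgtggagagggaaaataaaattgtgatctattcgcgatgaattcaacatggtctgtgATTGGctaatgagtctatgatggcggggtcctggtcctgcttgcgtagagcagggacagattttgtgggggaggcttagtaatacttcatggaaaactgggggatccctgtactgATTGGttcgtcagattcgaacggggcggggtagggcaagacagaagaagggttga
Sc5d: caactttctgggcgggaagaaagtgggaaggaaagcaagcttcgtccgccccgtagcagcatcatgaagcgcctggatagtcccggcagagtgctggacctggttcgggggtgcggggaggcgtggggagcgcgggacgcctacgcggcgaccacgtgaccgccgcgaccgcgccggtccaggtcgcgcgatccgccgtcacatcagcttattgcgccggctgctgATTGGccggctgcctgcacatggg
Npc1l1: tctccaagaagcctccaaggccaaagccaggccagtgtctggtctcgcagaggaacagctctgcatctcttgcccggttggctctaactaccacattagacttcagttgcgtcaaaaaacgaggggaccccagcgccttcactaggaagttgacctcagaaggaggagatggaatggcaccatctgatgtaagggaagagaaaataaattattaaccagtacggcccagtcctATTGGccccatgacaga
Mylip: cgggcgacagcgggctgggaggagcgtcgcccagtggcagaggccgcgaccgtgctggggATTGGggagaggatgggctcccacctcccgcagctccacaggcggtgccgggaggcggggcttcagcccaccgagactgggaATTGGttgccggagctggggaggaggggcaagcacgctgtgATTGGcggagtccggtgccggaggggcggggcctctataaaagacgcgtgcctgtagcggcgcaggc
Hmgcs1: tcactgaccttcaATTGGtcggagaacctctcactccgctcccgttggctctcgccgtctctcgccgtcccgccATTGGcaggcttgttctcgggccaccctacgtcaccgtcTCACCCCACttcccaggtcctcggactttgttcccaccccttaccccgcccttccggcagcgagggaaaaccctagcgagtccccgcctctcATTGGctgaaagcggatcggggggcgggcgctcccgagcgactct
The stretches lie at chr8:122443423-122443655 (minus strand, Mvd, cut to 233 bases to leave out sequence that the annotation places within a gene), chr13:8885356-8885605 (plus strand, Idi1), chrX:8193513-8193762 (minus strand, Ebp), chr9:42264301-42264550 (minus strand, Sc5d), chr11:6230246-6230495 (minus strand, Npc1l1), chr13:45389492-45389741 (plus strand, Mylip) and chr13:119690101-119690350 (plus strand, Hmgcs1). A CCAAT box began within 60 bases of the start in Mvd, Idi1, Ebp, Sc5d, Npc1l1 and Hmgcs1, and 67 bases before it in Mylip. All 7 stretches carried it, as did 20 of the 21 genes with a window. Its presence therefore could not separate genes that were higher from genes that were lower, and nothing is read from it.

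Slc51a was at 11.29 to 11.41 in wild type and at 4.50 to 4.68 in the knockout, where the median probe set lies at 4.58. The ileal genes Fabp6 and Slc10a2 were at 13.11 and 11.42 in wild type. Array medians ran from 4.559 to 4.604, and the mean of the hybridization controls was lowest in wild type 2 and in knockout 3 and 4. Of all genes, 30.0% passed an adjusted p of 0.05 in limma, 17.1% higher and 12.9% lower in the knockout, and in 30.7% the samples of the genotypes did not overlap. Markers of several cell types moved too. Mature enterocyte genes were lower (8 of 10 called, 0 higher, summed log2 level 107.0 to 108.8 in wild type and 101.3 to 103.0 in the knockout). Of 11 crypt and proliferation genes 7 rose and 2 fell (89.3 to 90.4 against 91.8 to 93.9). The 2 that fell, named after values were seen, were the crypt stem cell genes Lgr5 (-0.31) and Olfm4 (-0.18). Ascl2, another such gene, was lower without a call (-0.19), so the sum does not describe the stem cell genes. Smooth muscle (7 of 7), T lymphocyte (8 of 8), B lymphocyte and plasma cell (3 of 5), myeloid (3 of 6), enteric nerve (3 of 4) and goblet genes (2 of 5) included calls in the lower direction only. Paneth genes (0 of 3) and adipocyte genes (0 of 2) had no call, and 1 of 6 fibroblast genes rose. Smooth muscle summed to 67.8 to 71.1 against 62.2 to 64.1, and T lymphocyte genes to 57.7 to 59.4 against 45.1 to 47.9. B lymphocyte and plasma cell genes summed to 37.7 to 40.5 against 33.1 to 37.0, myeloid genes to 47.3 to 48.6 against 45.9 to 46.7, enteric nerve genes to 20.1 to 20.7 against 18.9 to 19.2 and goblet genes to 57.3 to 57.6 against 56.1 to 56.9. Log2 signals have a floor and not a zero, and 1 T lymphocyte, 1 myeloid, 2 fibroblast, 1 adipocyte and 3 enteric nerve genes lay below the median probe set. In bulk tissue, fewer cells of a type and less RNA per cell cannot be told apart, and the part of these shifts in the results on cholesterol genes was not tested.

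Of the 27 cholesterol genes 7 were called higher in the knockout, 6 were called lower and 14 missed the threshold, with mostly small changes. The enzymes of the mevalonate branch were mostly higher, the later sterol enzymes went both ways, and the cholesterol importer Npc1l1 and the regulators Mylip and Insig2 were lower. The 13 calls make 48.1% of the measured set, against 30.0% of all genes. All 27 lay above the median probe set, and among the genes that did so 43.3% were called, 25.4% higher and 17.9% lower, beside 25.9% and 22.2% in the set. This floor does not match the genes on brightness, since the median wild-type level was 8.65 in the set and 5.47 over all genes, and nothing particular to the set is read from its share. The groups did not overlap in 12 of the 27 genes, beside 30.7% of all genes, a share that is again not matched on brightness. The median difference was -0.02 over the set and 0.01 over all genes, and the median size regardless of sign was 0.170 against 0.0989. Only Mylip and Npc1l1 passed with a change of 1.5-fold or more, which 4.83% of all genes did. The split of the calls moved with the scaling, in the set and over all genes alike. Median centring gave 7 higher and 5 lower in the set (3315 and 1973 of all genes), quantile normalisation 5 and 7 (2834 and 2315) and cyclic loess 5 and 10 (2512 and 2640), beside 2924 higher and 2210 lower of all genes without rescaling. Without the 3 arrays with low hybridization controls 11 genes of the set were called, 6 higher and 5 lower, where 20.4% of all genes were.

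**Figure D1:**
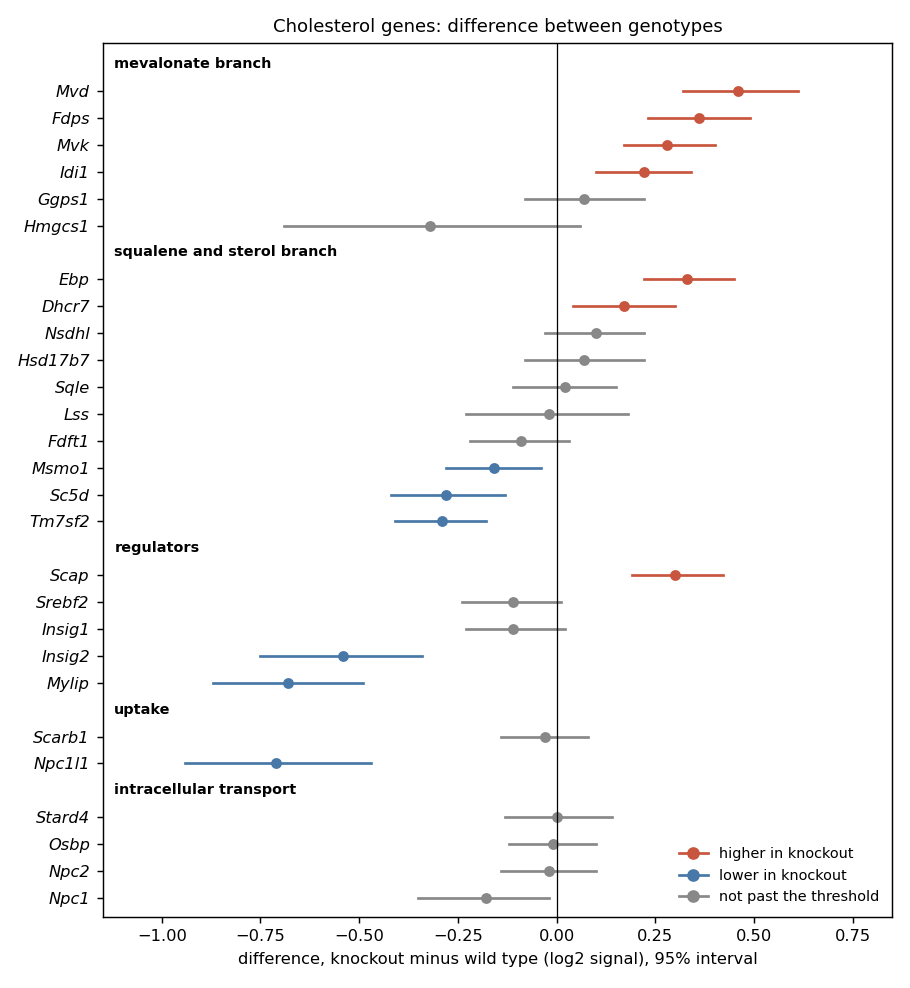
Difference in log2 signal, knockout minus wild type, for the 27 measured genes by role, with points for limma estimates and lines for 95% intervals that are not adjusted for multiple testing (n = 4 per genotype). Red marks the 7 genes called higher, blue the 6 called lower and grey the 14 not past an adjusted p of 0.05; Mvd at 0.46 and Npc1l1 at -0.71 are the extremes.

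The mevalonate branch had 4 of 6 measured enzymes higher in the knockout and 0 lower, with a median difference of 0.25. Among all genes at or above the median probe set, 25.4% were called higher and 17.9% lower. Mvd, the decarboxylase that yields isopentenyl diphosphate, was at 7.22, 7.20, 7.28 and 7.15 in wild type and at 7.69, 7.83, 7.67 and 7.52 in the knockout. Every knockout sample lay above every wild-type sample, and the rise was 0.46 (SE 0.06, adjusted p = 0.000275), or 38.0%. By its name, the Mvd probe set used here may also read other transcripts. Fdps, which makes farnesyl diphosphate, was at 9.19, 9.07, 9.21 and 9.13 against 9.45, 9.54, 9.64 and 9.40. The groups were again apart, and Fdps rose by 0.36 (SE 0.06, adjusted p = 0.00101). Mvk, the kinase that phosphorylates mevalonate, was at 6.60, 6.60, 6.62 and 6.67 against 6.79, 6.98, 6.97 and 6.89. It rose by 0.28 (SE 0.05, adjusted p = 0.00183) without overlap. Idi1, the isomerase of isopentenyl diphosphate, was at 9.82, 9.94, 9.87 and 9.88 against 10.05, 10.12, 10.21 and 10.02. It rose by 0.22 (SE 0.05, adjusted p = 0.00921) without overlap, a call lost with quantile normalisation (adjusted p = 0.0524) and cyclic loess (adjusted p = 0.0937).

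The other enzymes of this branch did not pass. Hmgcs1, the synthase at the start of the pathway and a classical SREBP target, was at 6.15, 6.88, 5.95 and 6.11 in wild type and at 5.92, 5.78, 6.15 and 5.97 in the knockout. Wild type 2 stood above all others and the remaining samples overlapped. The difference of -0.32 (SE 0.17, adjusted p = 0.199) became -0.12 without wild type replicate 2 (adjusted p = 0.391). The 95% interval over all 8 samples was -0.69 to 0.06. Hmgcs1 was read by 1 single-symbol probe set, with a mean of 6.11, so no other probe set bears on this value. Its wild-type SD of 0.41 was the largest in the set. Ggps1, which makes the geranylgeranyl diphosphate used to prenylate proteins and stands outside the route to sterols, was at 6.56 ± 0.10 (SD, n = 4) and 6.63 ± 0.11 (difference 0.07, 95% interval -0.08 to 0.22, adjusted p = 0.525).

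**Figure D2:**
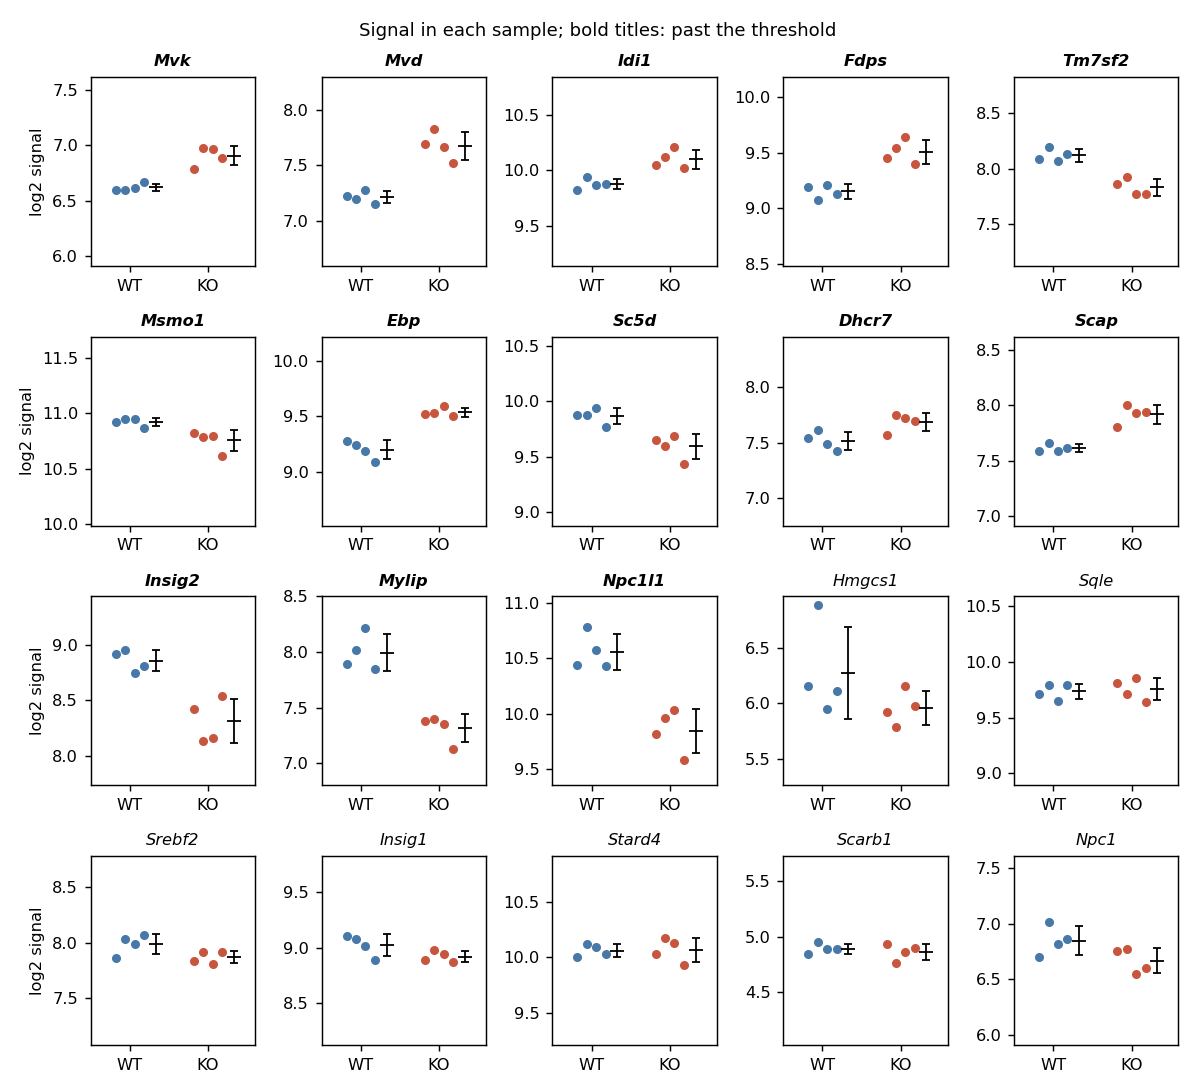
Log2 signal in each sample for the 13 genes past the threshold (bold titles) and 7 that were not, wild type (WT, blue) and Slc51a knockout (KO, red), with the mean and SD as black bars; each panel spans the same log2 range. Wild-type and knockout points are separate in the bold panels except Dhcr7, and 1 wild-type sample of Hmgcs1 stands at 6.88.

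The squalene and sterol branch did not move as a unit. Of 10 enzymes 2 were higher, 3 were lower and 5 missed the threshold, with a median difference of 0.00. Calls in both directions were common, at 25.4% higher and 17.9% lower among all genes at or above the median probe set. The split over these 10 enzymes is therefore not read as particular to the branch. Ebp, the sterol isomerase, was at 9.28, 9.24, 9.19 and 9.09 in wild type and at 9.52, 9.53, 9.59 and 9.50 in the knockout. Its groups were apart and it rose by 0.33 (SE 0.05, adjusted p = 0.000615). Dhcr7, the reductase of the last step, was at 7.54, 7.62, 7.49 and 7.43 against 7.57, 7.75, 7.72 and 7.70. Knockout 1 fell within the wild-type range. Dhcr7 rose by 0.17 (SE 0.06, adjusted p = 0.0474), and this call was lost in 12 of 18 alternatives, among them leaving out wild type 1, 3 or 4 or knockout 2, 3 or 4 (adjusted p up to 0.131).

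The 3 sterol enzymes that fell act at other steps of the same chain. Tm7sf2, a sterol reductase of the inner membrane of the nuclear envelope and endoplasmic reticulum, was at 8.09, 8.20, 8.07 and 8.13 in wild type and at 7.86, 7.93, 7.77 and 7.77 in the knockout. The groups were apart, with a change of -0.29 (SE 0.05, adjusted p = 0.00152). Sc5d, the desaturase that acts just before Dhcr7, was at 9.88, 9.88, 9.94 and 9.77 against 9.65, 9.60, 9.69 and 9.43. It changed by -0.28 (SE 0.06, adjusted p = 0.00692) without overlap, so the enzyme before the last step fell while the last one was slightly higher. Msmo1, the methylsterol oxidase, was at 10.92, 10.95, 10.95 and 10.87 against 10.82, 10.79, 10.80 and 10.62. Knockout 4 stood below the other knockout samples. The change of -0.16 (SE 0.05, adjusted p = 0.0432) lost its call in 11 of 18 alternatives, among them leaving out any wild-type sample or knockout 2, 3 or 4 (adjusted p up to 0.104).

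Sqle, the squalene epoxidase and a rate-controlling step after squalene, was at 9.71, 9.79, 9.65 and 9.79 in wild type and at 9.81, 9.71, 9.86 and 9.64 in the knockout. The samples were intermixed, with a difference of 0.02 (SE 0.06, adjusted p = 0.835) and a 95% interval of -0.11 to 0.15. Fdft1, the squalene synthase, differed by -0.09 (interval -0.22 to 0.03, adjusted p = 0.267) and was called lower only with cyclic loess (-0.18, adjusted p = 0.0454). Nsdhl and Hsd17b7, which remove methyl groups together with Msmo1, differed by 0.10 (interval -0.03 to 0.22) and 0.07 (interval -0.08 to 0.22). Lss, the cyclase that makes lanosterol, differed by -0.02 (interval -0.23 to 0.18) at a low level of 5.33 ± 0.22 and 5.31 ± 0.05, where RMA compresses differences.

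Among the 5 regulators, Scap rose, Insig2 and Mylip fell, and Srebf2 and Insig1 did not pass. Since 25.4% of genes at or above the median probe set were called higher and 17.9% lower, nothing is read from these counts. Scap was at 7.59, 7.66, 7.59 and 7.61 in wild type and at 7.80, 8.0, 7.93 and 7.94 in the knockout. The groups were apart and the rise was 0.30 (SE 0.05, adjusted p = 0.00109). Insig2, a sterol-sensing anchor of Scap, was at 8.92, 8.95, 8.75 and 8.81 against 8.42, 8.13, 8.16 and 8.54. Knockout 1 and 4 lay above knockout 2 and 3, all below wild type. Its change was -0.54 (SE 0.09, adjusted p = 0.00104), so the signal was 31.4% lower. Mylip, the ubiquitin ligase that marks lipoprotein receptors for breakdown and is a target of the oxysterol receptor LXR, was at 7.89, 8.02, 8.22 and 7.85 against 7.38, 7.40, 7.35 and 7.13. The gap between groups was wide beside their spread, with a change of -0.68 (SE 0.09, adjusted p = 0.000161), a signal 37.6% lower.

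Srebf2 itself was at 7.86, 8.03, 7.99 and 8.07 in wild type and at 7.84, 7.92, 7.81 and 7.92 in the knockout. The ranges overlapped, with a difference of -0.11 (SE 0.06, 95% interval -0.24 to 0.01, adjusted p = 0.171). Quantile normalisation and cyclic loess called it lower (-0.16, adjusted p = 0.0470, and -0.18, adjusted p = 0.0237). A dimmer Srebf2 probe set (mean 6.9) showed no such drop, differing by 0.02 (SE 0.05, adjusted p = 0.852 over all probe sets). Averaging the Srebf2 probe sets gave -0.05 (adjusted p = 0.489). Insig1, the homologue of Insig2 and an SREBP target itself, was at 9.11, 9.08, 9.02 and 8.89 against 8.89, 8.98, 8.94 and 8.87. It differed by -0.11 (SE 0.06, interval -0.23 to 0.02, adjusted p = 0.202) and was called lower with cyclic loess alone (-0.19, adjusted p = 0.0377). On the brightest probe sets the intervals of Insig1 and Insig2, -0.23 to 0.02 and -0.75 to -0.34, did not meet, though the difference between these genes was not tested. The other probe sets of Insig2 differed by less, at -0.31 and -0.13, and the last value is near the -0.11 of Insig1.

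**Figure D3:**
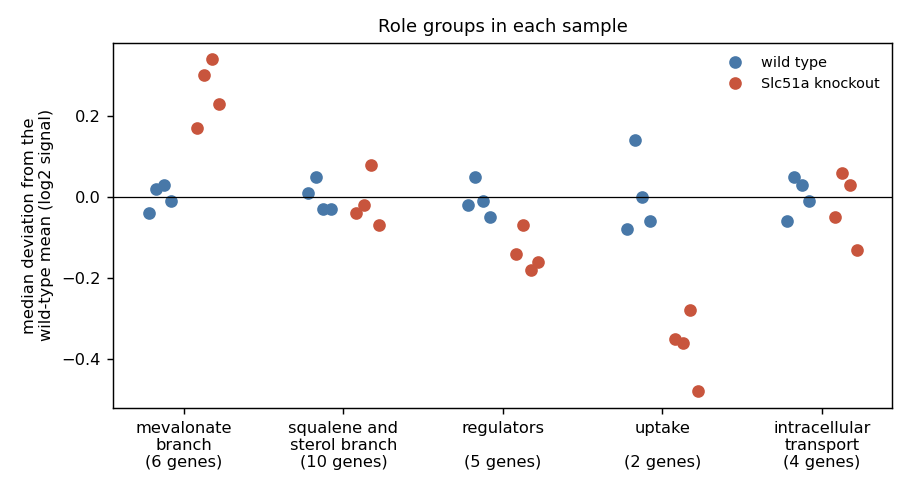
Median deviation of each role group's genes from their wild-type means (log2 signal) in each of the 4 wild-type (blue) and 4 knockout (red) samples, with the number of genes in brackets. The mevalonate branch lies at 0.17 to 0.34 in the knockout against -0.04 to 0.03 in wild type, uptake at -0.48 to -0.28 against -0.08 to 0.14, regulators at -0.18 to -0.07 against -0.05 to 0.05, and the sterol branch and intracellular transport overlap. Uptake holds only Npc1l1 (-0.71) and Scarb1 (-0.03, not called), and the regulators went both ways.

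Synthesis and uptake are set side by side as counts and medians, without a test, because the genes were picked by name. Of 16 synthesis enzymes 6 rose, 3 fell and 7 did not pass, with a median difference of 0.07. Of 6 measured genes of uptake and intracellular transport, 0 rose, 1 fell and 5 did not pass, with a median of -0.03, beside 0.01 over all genes. Among genes at or above the median probe set 25.4% were called higher and 17.9% lower, beside 37.5% and 18.8% of the synthesis enzymes. With so few genes, the counts are not read as a contrast between the sides. The medians by sample overlapped between genotypes on both sides, at -0.02 to 0.05 against -0.02 to 0.12 for synthesis and at -0.06 to 0.06 against -0.13 to 0.00 for uptake and transport. Within synthesis the medians of the mevalonate branch did not overlap between genotypes and those of the sterol branch did. Within uptake and transport Npc1l1 was the gene whose samples did not overlap. The medians of the 5 regulators, at -0.05 to 0.05 in wild type and -0.18 to -0.07 in the knockout, were also apart. These regulators did not move together, since Scap rose, Insig2 and Mylip fell, and Srebf2 and Insig1 were not called.

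Npc1l1, the brush border protein through which the enterocyte takes cholesterol from the lumen, was at 10.44, 10.78, 10.57 and 10.43 in wild type and at 9.82, 9.96, 10.03 and 9.58 in the knockout. All knockout samples were below all wild-type samples. The change was -0.71 (SE 0.10, adjusted p = 0.000448), a signal 1.63-fold higher in wild type, and on leaving out 1 array the difference ran from -0.77 to -0.62. In the same samples mature enterocyte genes had a median difference of -0.49 (8 of 10 lower), and their part in the Npc1l1 value was not tested. Scarb1, the receptor for high-density lipoprotein, lay near the median probe set at 4.89 ± 0.05 and 4.86 ± 0.07 (difference -0.03, interval -0.14 to 0.08, adjusted p = 0.738), so a change there could be hidden.

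Of the 4 genes that move cholesterol inside the cell none passed in limma, and 1 had an unadjusted p under 0.05. That gene was Npc1, which exports cholesterol from lysosomes, at 6.70, 7.02, 6.82 and 6.86 against 6.76, 6.77, 6.55 and 6.60. The samples overlapped, with a difference of -0.18 (SE 0.07, adjusted p = 0.0953), and the call appeared without wild type replicate 1 (adjusted p = 0.0444) and with cyclic loess (adjusted p = 0.0394). Npc2, the soluble partner that hands cholesterol to Npc1, was at 9.99 ± 0.03 and 9.97 ± 0.09 (interval of the difference -0.14 to 0.10). Osbp, which exchanges sterol at contacts with the Golgi, was at 8.97 ± 0.05 and 8.96 ± 0.06 (interval -0.12 to 0.10). The sterol carrier Stard4 was at 10.06 ± 0.06 and 10.06 ± 0.11 on its brightest probe set (interval -0.13 to 0.14).

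Other probe sets bear on several of these values. The 27 genes had 44 probe sets with a single symbol, 16 genes having 1 and 11 having more. Of the 6 called genes with another probe set, 4 had one called in the same direction and 0 had one called in the opposite direction. Of all single-symbol probe sets 26.0% were called, a share over probe sets of any gene. The 4 of 6 is over genes already called, so these shares are not compared. Mvd and Mvk rose on both of theirs (0.44 and 0.40 on the dimmer one), and Sc5d fell on 2 of 3 (-0.41 on the second). Insig2 declined in size with the brightness of its probe sets, at -0.54, -0.31 (adjusted p = 0.0261) and -0.13 (adjusted p = 0.288), and on the last the samples overlapped, at 8.01 to 8.22 in wild type and 7.77 to 8.11 in the knockout. The mean of its probe sets differed by -0.33 (adjusted p = 0.0145). Idi1 differed by 0.10 on its second probe set (adjusted p = 0.258), and the second of Msmo1 lay near the median probe set at 4.55 and was not called (0.14, adjusted p = 0.569). The mean of both Msmo1 probe sets differed by -0.01 (adjusted p = 0.950), while cyclic loess gave -0.26 on the brighter one (adjusted p = 0.00541).

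**Figure D4:**
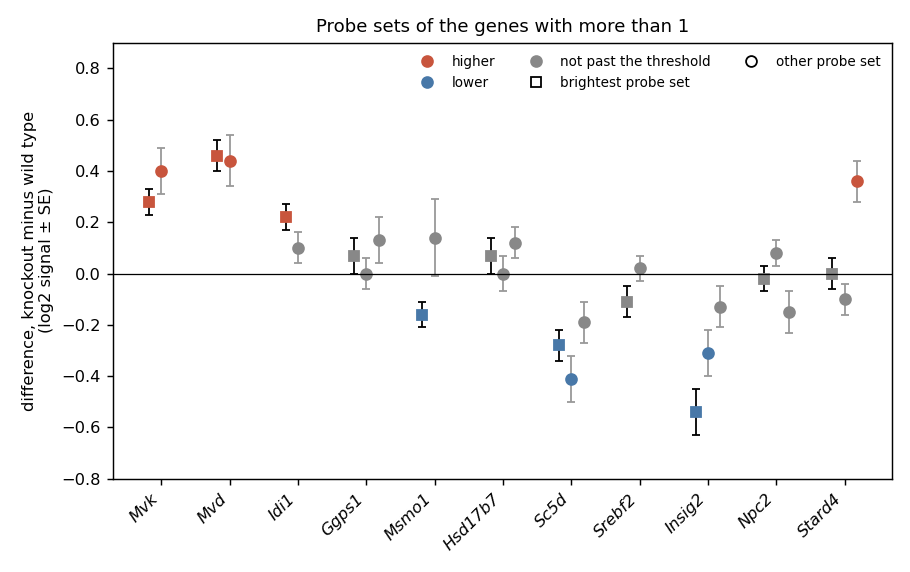
Difference in log2 signal, knockout minus wild type, with SE bars, for every probe set of the 11 genes that have more than 1, ordered from brightest (square) to dimmest (circles); p values are adjusted over all single-symbol probe sets. Mvk, Mvd, Sc5d and Insig2 have 2 called probe sets each, and the third of Stard4 is called higher at 0.36 while its brighter 2 lie at 0.00 and -0.10.

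Stard4 was not called on its brightest probe set but was on another. The third, with a mean of 8.68, read 8.44, 8.50, 8.64 and 8.39 in wild type and 8.94, 8.89, 8.98 and 8.62 in the knockout. Only knockout 4 lay within the wild-type range, and the rise was 0.36 (SE 0.08, adjusted p = 0.00662 over all probe sets). The brighter 2 had differences of 0.00 (adjusted p = 0.978) and -0.10 (adjusted p = 0.306). Which transcript forms of Stard4 each probe set reads is not stated in the sources used here.

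Further genes of the pathway were listed by role. Of 34 listed 25 were measured, and 4 rose, 5 fell and 16 did not pass, or 36.0% called, with a median of 0.00. Over all genes 30.0% were called and the median was 0.01. Of the 25 genes 2 lay below the median probe set, and among all genes at or above it 43.3% were called. The share lay between these backgrounds, neither of which is matched on brightness, and nothing particular to these genes is read from it. In the group of sterol and prenyl enzymes 3 of 7 rose and 0 fell. Pdss2, a subunit of the synthase that builds the tail of coenzyme Q from the isoprenoids of the mevalonate branch, was at 7.29, 7.37, 6.98 and 7.35 in wild type and at 8.17, 7.97, 8.08 and 8.27 in the knockout. The groups lay far apart, and at 0.87 (SE 0.09, adjusted p = 4.76e-05), or 83.1%, the rise was large beside their spread. With the mean of its probe sets in place of the brightest it was 0.37 (adjusted p = 0.00158). Cyp51, the demethylase of lanosterol, rose by 0.18 (SE 0.06, adjusted p = 0.0433) and Fnta, a subunit of protein farnesyltransferase, by 0.16 (SE 0.05, adjusted p = 0.0352). Both calls were weak: Cyp51 lost it without knockout 3 (adjusted p = 0.117) or any other single array but knockout 4, and Fnta without wild type 1, 3 or 4 or knockout 1, 2 or 4 (adjusted p up to 0.105).

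Mbtps2, the Golgi protease that makes the second cut that frees SREBP, was at 7.06, 6.93, 7.0 and 7.13 against 7.56, 7.59, 7.38 and 7.69. It rose by 0.53 (SE 0.07, adjusted p = 0.000216) without overlap, and by 0.31 (adjusted p = 0.00156) with the mean of its probe sets. It was the 1 gene called of 5 in SREBP processing and sterol-driven degradation, and Erlin1, named after its values were seen, was called lower as well with the mean of probe sets (-0.21, adjusted p = 0.0195) and with cyclic loess (-0.22, adjusted p = 0.0139). The half-transporters Abcg5 and Abcg8, which together pump sterols back into the lumen, both fell. Abcg5 was at 9.74, 10.02, 9.96 and 9.80 against 9.16, 9.40, 9.34 and 9.12, a change of -0.63 (SE 0.08, adjusted p = 0.000208). Abcg8 was at 6.85, 6.92, 7.0 and 6.76 against 6.40, 6.28, 6.34 and 6.45, a change of -0.51 (SE 0.06, adjusted p = 0.000116). The importer Npc1l1 and both subunits of the exporter were thus lower in the same knockout samples, as were 8 of 10 enterocyte genes.

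Gramd1b, which carries cholesterol from the plasma membrane to the endoplasmic reticulum, was at 6.57, 6.52, 6.43 and 6.31 against 5.75, 5.66, 5.80 and 5.59 with a change of -0.75 (SE 0.07, adjusted p = 1.89e-05). Cyp27a1, the mitochondrial sterol hydroxylase, was at 7.17, 7.04, 7.45 and 7.07 against 6.36, 6.56, 6.30 and 5.95 with a change of -0.89 (SE 0.13, adjusted p = 0.000312). Groups were apart for both genes. Srebf1 and Abca1, which were to be reported whatever their values, were not analysed here.

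**Figure D5:**
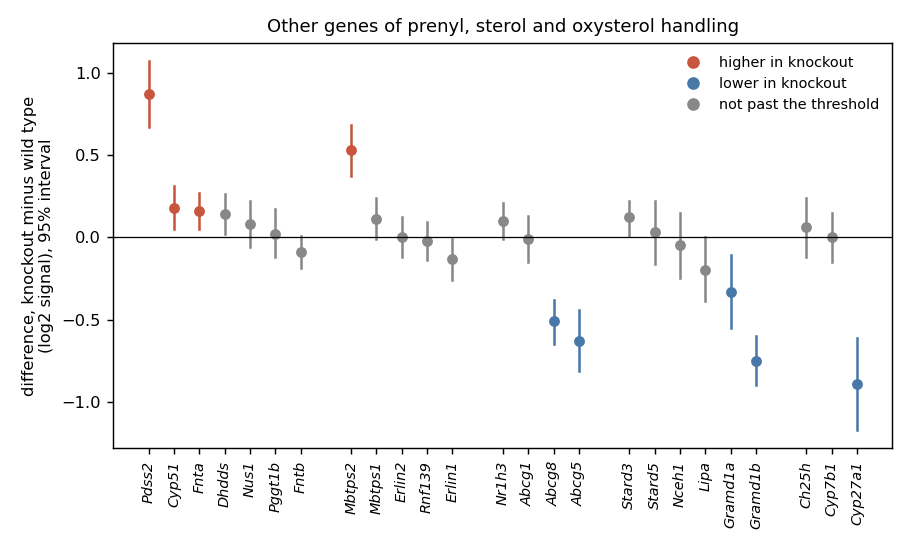
Difference in log2 signal, knockout minus wild type, with unadjusted 95% intervals, for the 25 further measured genes, from left to right sterol and prenyl enzymes, SREBP processing and degradation, efflux and LXR, sterol movement and ester hydrolysis, and oxysterol enzymes (n = 4 per genotype). Red marks 4 genes called higher, led by Pdss2 at 0.87, and blue 5 called lower, led by Cyp27a1 at -0.89.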

How the data were processed

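The authors deposited log2 signals per probe set, made with RMA according to the submitters' processing notes, which name no version. Total RNA (250 ng) was labelled with a 3′ in vitro transcription kit, per the labels' protocols. RMA compresses low signals, so differences near the floor are understated. Of 45037 probe sets other than controls, 28898 had 1 gene symbol, 551 several and 15588 none listed; symbols were updated through RefSeq, and the brightest probe set stood for each of 17097 genes. Genotypes were compared with limma 3.58.1 (R 4.3.3; lmFit, eBayes, 2-sided), Benjamini-Hochberg adjusted over all genes and called under 0.05. Samples are labelled biological replicates; 4 arrays per genotype limit the precision. Members, lists and tests were chosen with earlier results of these data known. All members were named; per-sample values are given for called members and for Srebf2, Insig1, Hmgcs1, Sqle, Npc1l1 and Soat2 whatever their values (Soat2 was not analysed here), and for other pathway genes up to 4 per direction with the smallest adjusted p, plus Srebf1, Abca1, Abcg5 and Abcg8. Per-sample values of Npc1 and of the third Stard4 probe set, and the ileal genes, were added after values were seen. The cell type lists covered enterocytes, crypt, goblet, Paneth, smooth muscle, T, B and plasma, myeloid, fibroblast, adipocyte and enteric nerve genes. On simulated data for this comparison (17097 genes, 50 changed at each size), 42% of genes changed by 0.25, 88% by 0.5, 96% by 1 and 100% by 2 on the log2 scale were recovered, with 10 false calls. Far fewer genes were changed there than the 30.0% called in the data. The adjustment was therefore harsher, and these shares do not give the recovery in the data. Alternatives were other scalings, probe set rules, variance priors, array weights, a replicate block, omitted arrays and other thresholds; the closing section gives their effect.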

Additional observations from a re-analysis of the deposited data

Results flagged for a closer look

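Msmo1 in knockout replicate 4 read 10.62, below the 10.79 to 10.82 of the other knockout samples, a gap of 0.844 of the group's range, above the limit for 4 samples. It was the 1 case among 70 groups of 4 examined (35 genes in each genotype), and chance flags about 1 in 20 such groups.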

How the results depend on the processing

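Of the 13 called genes, 10 kept direction and call in all 18 refits (Mvk, Mvd, Fdps, Ebp, Tm7sf2, Sc5d, Scap, Insig2, Mylip and Npc1l1); the exceptions were Idi1, Dhcr7 and Msmo1. With cyclic loess 10 genes of the set were lower, 2 of uptake and transport among them, and medians were 0.19 for the mevalonate branch, 0.02 for synthesis and -0.10 for uptake and transport, while 2 of the further pathway genes were higher. At 1.5-fold or more, 825 genes passed, 351 higher and 474 lower, with 2 genes of the set, 0 higher and 2 lower, and among synthesis enzymes 0 higher and 0 lower. At 0.01, 1446 genes were lower; at 0.1, 2 of uptake and transport were. When wild type 2 and knockout 3 and 4, lowest in hybridization controls, were left out, 1414 genes were lower and the set had 11 calls, 6 higher and 5 lower, where 20.4% of genes were called. On leaving out 1 array, the sterol branch median ran from -0.06 to 0.04 (lowest without wild type replicate 3) and 1 or 2 genes of uptake and transport were lower, 2 without wild type replicate 1. With the replicate number as a replicate block, the set had 12 calls, 6 higher and 6 lower, Dhcr7 being lost (adjusted p = 0.0522), and 5190 genes were called in all; deviations of same-numbered samples correlated at -0.051 to 0.218, over 0.1 in 3 of 4 pairs, and for 2 of the 4 numbers the best partner bore the same number, so a pairing was not established and the unblocked values are the ones reported. The causes were not tested. The 4 arrays per genotype limit what can be seen of small changes, and the simulation does not set the size at which this begins.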
